A study of Mus musculus with 8 samples.

Results

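The 9 genes described here encode the machinery by which a cell displays peptides on major histocompatibility complex (MHC) class I molecules. They were picked out of the 52636 genes of the deposited table by their names: B2m, H2-K1, H2-D1, H2-T23, Tap1, Tap2, Tapbp, Calr and Pdia3. A class I molecule is a heavy chain, encoded by an H2 gene in the mouse, bound to the light chain beta-2 microglobulin, encoded by B2m. Peptides cut by the proteasome in the cytosol are pumped into the endoplasmic reticulum (ER) by the transporter made of Tap1 and Tap2, and are fitted to the heavy chain by a loading complex that holds tapasin (Tapbp), calreticulin (Calr) and the thiol oxidoreductase ERp57 (Pdia3). Nearly every nucleated cell makes these proteins, muscle fibres in healthy muscle show little class I on their surface, and interferons raise the expression of much of the pathway.

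The libraries were made from muscle satellite cells (SCs), which are stem cells lying along the muscle fibres, of male C57B/6J mice that were 10 weeks old when they were divided into groups. The 4 control libraries (control 1 to 4) came from sedentary mice. The 4 exercise libraries (exercise 1 to 4) came from mice trained on a treadmill for 4 weeks, with 4 sessions of 30 min each week at 12 m per min. About 800 SCs per library had been sorted as cells with CD34 and alpha-7 integrin and without CD45, Sca1, CD11b and CD31, and their RNA was amplified with a kit made for small numbers of cells. Levels are given as FPKM, reads scaled to gene length and to a library size, and as the reads behind them.

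Several facts of the libraries touch every value below. Control libraries held 2339966 to 3013354 reads on genes and exercise libraries 1011737 to 1200221, so a gene with no read was bounded more loosely in exercise libraries. The deposited FPKM summed to 2488140 in exercise 4, against 331669 to 637095 in exercise 1 to 3 and 339848 to 433216 in control libraries. A read of exercise 4 is thus worth more FPKM than a read of any other library. Its FPKM values and limits stand higher for that reason, beyond what its depth gives. Mitochondrial transcripts took 2.09% to 15.3% of the reads in control libraries, 7.85% and 7.56% in exercise 1 and 2, and 50.2% and 68.7% in exercise 3 and 4. Between exercise 1 and 2 the reads of genes gave 3.86 as chi-square per degree of freedom, where sampling alone gives values near 1, and other pairs within a group gave 82.6 to 711. Genes that were read in only 1 of control 1 and control 3 kept in control 4, at the median, 0.281 and 0.714 of the share they had there, and those read in only 1 of exercise 1 and exercise 4 kept 0.299 and 0.677 in exercise 3. Adding control 1 and control 3 in those proportions gave 472 H2-K1, 429 H2-D1 and 59.1 B2m reads for control 4, which held 443, 357 and 64. The same for exercise 3 gave 83.4, 58.3 and 54.6, against 98, 93 and 85 reads. The libraries may therefore not all be separate samples, and p-values measure only the spread between them. Of 12 satellite cell markers 8 had a read. Pax7, Itga7 (alpha-7 integrin), Cdh15 and Calcr had no read in any library and Myf5 had 4 reads, all in control libraries, so the label was not borne out by these defining markers. Among myofibre genes, Tnnc2 also had no read in any library beside 1172 to 11112 reads of Tnni2, so a 0 need not mean absence. Myod1 had 6 and 7 reads in control 3 and 4. Vcam1 had 39, 35 and 25 reads in control 2 to 4, and Cxcr4 had 2 in control 3. None of these 3 had a read in exercise libraries. Sdc4 had reads in all libraries (3.25 to 33.8 FPKM in control, 30.0 to 76.1 FPKM in exercise), Chodl in control libraries alone (3.29 to 16.5 FPKM, limma adjusted p = 0.00881) and Heyl in exercise libraries alone (28.4, 27.2, 11.8 and 0.679 FPKM, limma adjusted p = 0.0212). Cd34 stood at 0.874 ± 0.620 FPKM in control and 5.54 ± 3.65 FPKM in exercise libraries (SD, n = 4), with an adjusted p of 0.067 by limma.

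Promoter sequences were available for 8 of the 9 genes, all but Tap2, from RefSeq on GRCm38.p6. The stretches upstream of B2m and H2-K1, the light chain and the most abundant classical heavy chain by reads, are shown because they hold the paired elements for which class I promoters are known, an interferon response element and an NF-kappaB site. The 249 bases before the B2m start, at chr2:122147437-122147685 on the plus strand, and the 250 bases before the H2-K1 start, at chr17:34000348-34000597 on the minus strand, read as follows, with matches to the motifs in capitals.
B2m: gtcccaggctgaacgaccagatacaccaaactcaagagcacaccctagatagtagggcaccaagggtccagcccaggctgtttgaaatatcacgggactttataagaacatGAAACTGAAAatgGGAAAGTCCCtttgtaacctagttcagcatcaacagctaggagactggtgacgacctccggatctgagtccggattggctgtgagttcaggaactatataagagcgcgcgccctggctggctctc
H2-K1: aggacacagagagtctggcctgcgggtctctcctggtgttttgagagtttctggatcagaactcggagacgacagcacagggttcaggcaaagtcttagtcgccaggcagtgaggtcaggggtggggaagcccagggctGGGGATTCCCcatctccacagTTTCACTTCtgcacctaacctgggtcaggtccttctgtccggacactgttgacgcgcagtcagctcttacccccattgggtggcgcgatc
The elements of H2-K1 and H2-D1 were then set side by side, as 30 bases at chr17:34000429-34000458 on the minus strand and at chr17:35262923-35262952 on the plus strand. In the gene annotation of the same build the H2-D1 stretch lies within the annotated exon that opens that gene.
H2-K1: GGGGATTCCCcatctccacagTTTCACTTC
H2-D1: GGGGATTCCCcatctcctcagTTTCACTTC
They differed at 1 of 30 bases, A18T, with the H2-K1 base given before the H2-D1 base and positions counted from 1 at the 5′ end. The motifs searched on both strands were GAAANNGAAA and GAANNGAAA for the interferon response element and GGGNNTTNCC for the NF-kappaB site, together with the CCAAT box (CCAAT), which is not capitalised here. The capitalised matches do not overlap each other. They were chosen after the promoters had been read. Of 32851 RefSeq promoter windows of 300 bases, 3.44%, 7.52%, 4.79% and 37.4% held them in that order. B2m matched GAAANNGAAA and GGGNNTTNCC, H2-K1 and H2-D1 matched GAANNGAAA and GGGNNTTNCC, and H2-T23 matched GAAANNGAAA. In the windows of Tap1, Tapbp, Calr and Pdia3 none of these 3 motifs was found, and CCAAT was found in the windows of all 8 genes. A match describes the letters only.

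Transcripts of the pathway were detected unevenly. Averaged over the 8 libraries, B2m had 56.5 FPKM, H2-K1 46.1 FPKM and H2-D1 44.1 FPKM, while Calr had 6.68 FPKM, Tapbp 3.78 FPKM and Pdia3 1.68 FPKM. Tap1, H2-T23 and Tap2 averaged 0.0504 FPKM or less. In this order each gene's range over the libraries overlapped that of the next. The order of the leading 3 differed by group and library, as given below, and the transporter subunits were at the limit of detection in every library.

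Taken over the whole comparison of exercise with control, 1 of the 9 genes passed the test. The test was limma on log2(FPKM + 1) with Benjamini-Hochberg adjustment over the 4328 genes that averaged 1 FPKM or more, 6 of the 9 among them. Pdia3 fell in exercise libraries, and B2m, H2-K1, H2-D1, Tapbp and Calr did not pass. Of all genes tested 35.6% were called, 8.78% as higher and 26.8% as lower, so 1 of 6 is no larger a share than the background. Quantile normalization turned that split to 566 higher and 375 lower, from 380 and 1161. The log2 fold change was below 0 for 5 of the 6 genes against 68.3% of all genes tested, with a median of -1.18 against -1.42. Because the median of all genes lay so far below 0, each difference is also given relative to it.

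B2m, the light chain without which heavy chains do not leave the ER, was highest in 3 exercise libraries and lowest in the other. The gene (ENSMUSG00000060802, chr2:122147686-122153083 in mm10) had 57.3, 12.2, 9.53 and 18.7 FPKM in control 1 to 4 and 111, 151, 89.1 and 4.03 FPKM in exercise 1 to 4. These rest on 113, 32, 32 and 64 reads and on 159, 207, 85 and 1 reads. Exercise 1 to 3 lay above every control library and exercise 4 lay below every one, so the groups overlapped. The group means were 24.4 ± 22.2 and 88.7 ± 61.9 FPKM (SD, n = 4), and the log2 fold change was 1.40 (95% confidence interval -1.17 to 3.97; limma adjusted p = 0.325). The exact two-sided permutation test gave p = 0.371, where 4 libraries against 4 allow no p below 0.0286. Relative to the median of all genes tested the difference was 2.81. The value of exercise 4 has an exact Poisson interval of 0.102 to 22.5 FPKM, and that interval covers no more than counting error, because reads copied by amplification are not separate molecules. Without exercise 4 the log2 fold change was 2.53 and passed the test (limma adjusted p = 0.0242).

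**Figure D1:**
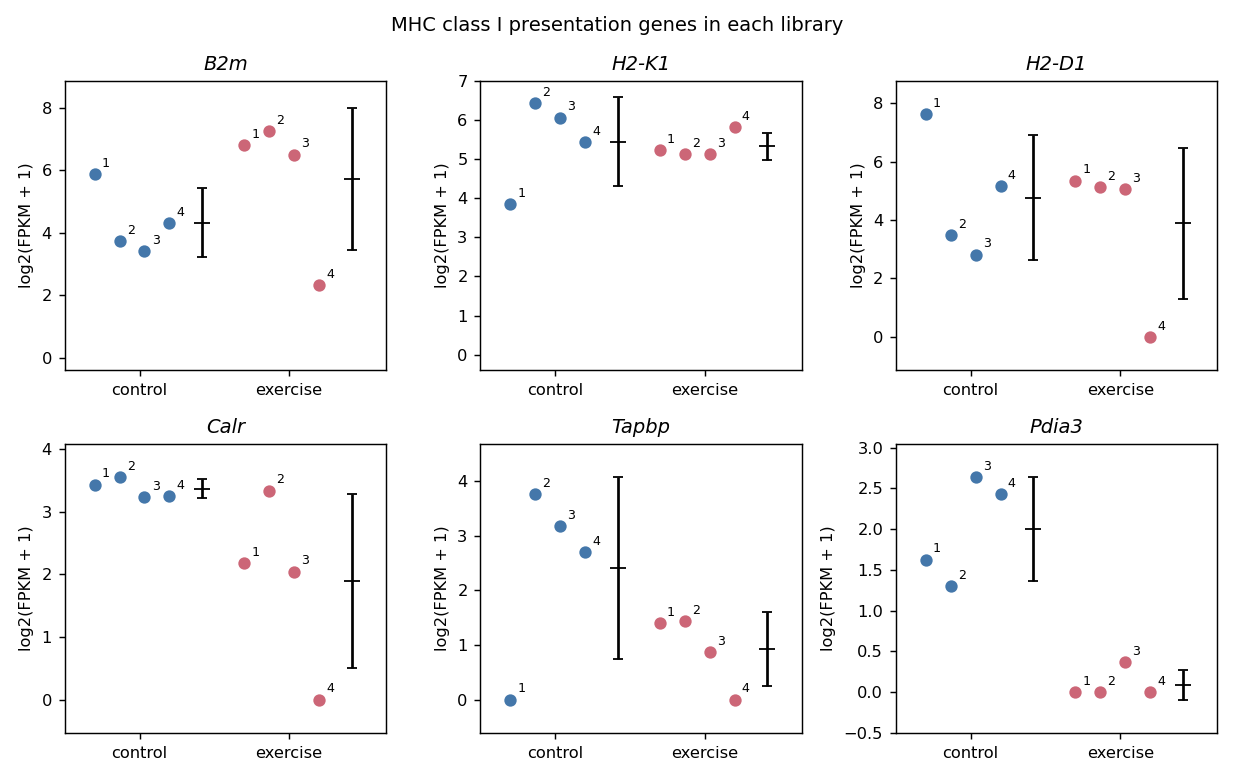
Level of the 6 genes that averaged 1 FPKM or more, as log2(FPKM + 1), in each control (blue) and exercise (red) library, numbered by replicate, with mean and SD in black (n = 4). Only for Pdia3 do the groups separate, with control libraries at 1.46 to 5.22 FPKM and exercise libraries at 0 to 0.287 FPKM; exercise 4 stands apart from exercise 1 to 3 for B2m, H2-K1 and H2-D1.

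H2-K1, the heavy chain of the K molecule, differed more between control libraries than between groups. The gene (ENSMUSG00000061232, chr17:33996017-34000333) had 13.5, 86.3, 66.0 and 42.6 FPKM in control 1 to 4, from 81, 689, 672 and 443 reads. In exercise 1 to 4 it had 36.5, 34.1, 33.9 and 55.9 FPKM, from 159, 142, 98 and 42 reads. All exercise libraries lay inside the control range. The log2 fold change was -0.13 with a 95% confidence interval of -1.79 to 1.53 (limma adjusted p = 0.894, exact permutation p = 0.857), from means of 52.1 ± 31.3 and 40.1 ± 10.6 FPKM (SD, n = 4). That interval leaves room for changes of several fold either way, and the sign turned under quantile normalization (0.69). With scaling to read totals the log2 fold change was -0.58 and with a constant sum -0.82 (limma adjusted p = 0.600 and 0.458). Relative to the median of all genes H2-K1 stood at 1.29.

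H2-D1, the heavy chain of the D molecule encoded on the same chromosome, had its highest value where H2-K1 had its lowest. The gene (ENSMUSG00000073411, chr17:35262730-35267499) had 196, 10.1, 6.06 and 34.7 FPKM in control 1 to 4 (1159, 80, 61 and 357 reads). In exercise 1 to 4 it had 39.9, 33.8, 32.5 and 0 FPKM (172, 139, 93 and 0 reads). A count of 0 in exercise 4 allows up to 4.04 FPKM, a limit under the lowest control value. The groups overlapped, with means of 61.7 ± 90.4 and 26.5 ± 17.99 FPKM (SD, n = 4) and a log2 fold change of -0.88 (95% confidence interval -4.10 to 2.34; limma adjusted p = 0.623, exact permutation p = 0.571). Relative to the median of all genes it was 0.53. Without exercise 4 the log2 fold change was 0.41 and without control 1 it was 0.07, so either library sets the sign, as does quantile normalization (0.12).

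The balance of the classical heavy chains within a library does not depend on how libraries are scaled. Of the reads on H2-K1 and H2-D1 together, H2-K1 took 6.53% in control 1 (Wilson 95% interval 5.29% to 8.05%), 89.6% in control 2, 91.7% in control 3 and 55.4% in control 4. It took 48.0%, 50.5% and 51.3% in exercise 1 to 3 and 100% in exercise 4, where 42 reads give an interval of 91.6% to 100%. Control libraries thus spanned nearly the whole scale, and exercise 1 to 3 lay within each other's counting error, with exercise 1 and 2 differing little over all genes. Control 4 lay between control 1 and control 3 here. As a ratio of FPKM, H2-K1 to H2-D1 ran from 0.0691 in control 1 to 10.9 in control 3. In exercise 1 to 3 it ran from 0.914 to 1.04.

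The coding parts of heavy chains are alike, so reads could be shared between them. Of the 50-base windows of annotated transcripts, 9.63% of those of H2-K1, 12.8% of those of H2-D1 and 13.6% of those of H2-T23 also occur in a transcript of another gene, against 0% for B2m and Pdia3. H2-K1 and H2-D1 shared 141 such windows with each other, 4.08% and 5.44% of their own. At the read length of 150 bases they shared 0 with each other, and 1.35% of the windows of H2-D1, 0.331% of those of H2-T23 and 0% of those of H2-K1 occur in any other gene. Values of the heavy chains are uncertain to that extent, as the authors' treatment of reads with several matches is not given in the sources used here.

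Heavy chains summed to less than the light chain in 3 exercise libraries and to more in the other 5 libraries. The ratio of summed heavy chain FPKM (H2-K1, H2-D1 and H2-T23) to B2m FPKM was 3.66, 7.95, 7.56 and 4.15 in control 1 to 4. In exercise 1 to 4 it was 0.690, 0.450, 0.745 and 13.8. Exercise 1 to 3 lay below every control library, and exercise 4 lay above every one on a single B2m read. The ratio is given as a description, with no test.

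**Figure D2:**
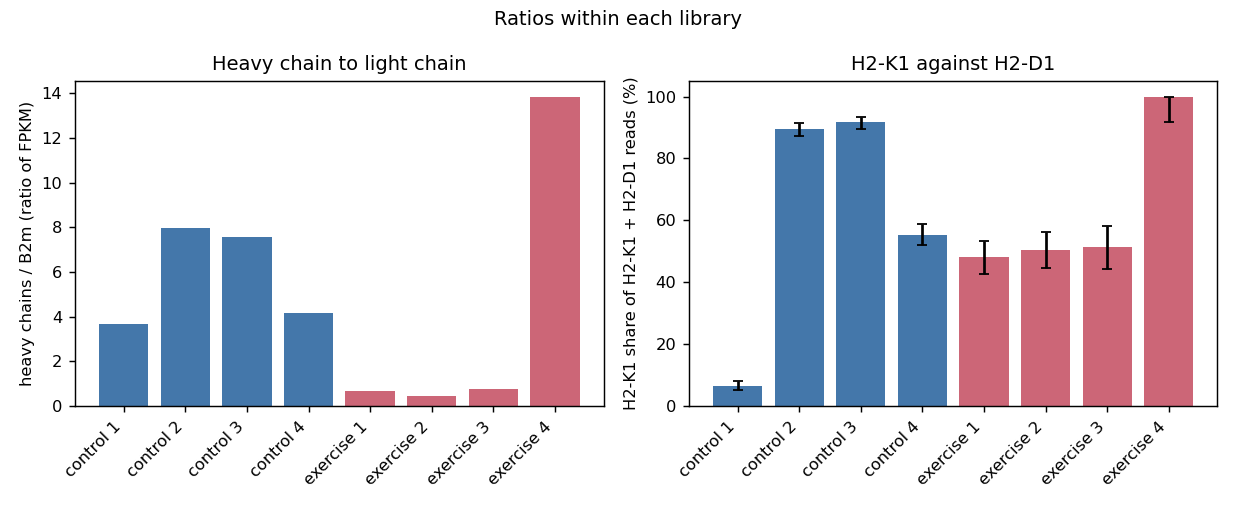
Ratios within each control (blue) and exercise (red) library: left, summed FPKM of H2-K1, H2-D1 and H2-T23 over B2m FPKM; right, the H2-K1 share of H2-K1 and H2-D1 reads in percent, with Wilson 95% intervals. The left ratio is 0.450 to 0.745 in exercise 1 to 3, 3.66 to 7.95 in control libraries and 13.8 in exercise 4; the right share runs from 6.53% in control 1 to 91.7% in control 3 and is 48.0% to 51.3% in exercise 1 to 3.

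H2-T23 encodes the heavy chain of the Qa-1 molecule, which presents leader peptides of other class I chains to natural killer cell receptors. The gene (ENSMUSG00000067212, chr17:36029773-36032855) had 2 reads in control 2 and 2 in control 4, worth 0.226 and 0.174 FPKM, and none in the other 6 libraries. A count of 0 allowed 0.453 FPKM or less in control 1 and 3, up to 0.937 FPKM in exercise 1 to 3 and up to 3.60 FPKM in exercise 4, so no difference was detectable at this depth. No fold is given, and the exact permutation p was 0.429.

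The peptide transporter was barely read. Tap1 (ENSMUSG00000037321, chr17:34187553-34197225) had 3 reads in control 1, 1 in exercise 3 and none in the other 6 libraries. Tap2 (ENSMUSG00000024339, chr17:34203527-34216321) had 1 read, in control 2. Control 1 and control 4 held 33 and 9 reads of Psmb9, an immunoproteasome subunit whose gene overlaps 212 bases at the start of Tap1 on the opposite strand. Strand was not stated for the counting, so reads within those bases cannot be told apart. A count of 0 in control 2 to 4 allowed up to 0.179 FPKM for Tap1, and in control 1, 3 and 4 up to 0.346 FPKM for Tap2. In exercise 4 the limits were 1.90 and 2.75 FPKM. The exact permutation p was 1 for both.

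Tapbp encodes tapasin, which holds the transporter and the empty heavy chain together. It (ENSMUSG00000024308, chr17:33915899-33929288) had 0, 12.6, 8.01 and 5.48 FPKM in control 1 to 4, from 0, 127, 103 and 72 reads. Exercise 1 to 4 had 1.63, 1.71, 0.821 and 0 FPKM, from 9, 9, 3 and 0 reads. All exercise libraries lay below control 2 to 4, and control 1, with no read and a limit of 0.397 FPKM, lay below exercise 1 to 3. The means were 6.52 ± 5.25 and 1.04 ± 0.802 FPKM (SD, n = 4), and the log2 fold change was -1.48 (95% confidence interval -3.43 to 0.47; limma adjusted p = 0.179, exact permutation p = 0.171). This was 0.07 below the median of all genes. Without control 1 the log2 fold change was -2.29 and passed (limma adjusted p = 0.00794), and with quantile normalization it was -0.19.

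Calr, the lectin chaperone that binds the glycan of new heavy chains, was the steadiest of the genes among control libraries. It (ENSMUSG00000003814, chr8:84841850-84846934) had 9.84, 10.8, 8.45 and 8.54 FPKM in control 1 to 4, from 65, 95, 95 and 98 reads. In exercise 1 to 4 it had 3.53, 9.14, 3.13 and 0 FPKM, from 17, 42, 10 and 0 reads. Exercise 1, 3 and 4 lay below the lowest control library and exercise 2 lay inside the control range, although exercise 1 and 2 were the most alike pair within a group. The limit for a count of 0 in exercise 4 was 3.61 FPKM. The means were 9.40 ± 1.11 and 3.95 ± 3.80 FPKM (SD, n = 4), with a log2 fold change of -1.48 (95% confidence interval -3.24 to 0.28; limma adjusted p = 0.147, exact permutation p = 0.0857), again 0.07 below the median of all genes. Without exercise 4 the log2 fold change was -0.85, and with quantile normalization it was -0.13.

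Pdia3 was the gene that fell. ERp57, its product, forms disulphide bonds in new glycoproteins and is joined to tapasin in the loading complex. The gene (ENSMUSG00000027248, chr2:121413775-121438687) had 2.08, 1.46, 5.22 and 4.40 FPKM in control 1 to 4 (15, 14, 64 and 55 reads) and 0, 0, 0.287 and 0 FPKM in exercise 1 to 4 (0, 0, 1 and 0 reads). The groups did not overlap, as was so for 31.6% of all genes tested. However, the limit for the count of 0 in exercise 4, 3.32 FPKM, lay above control 1 and control 2. At the control mean FPKM, 17.3, 16.5, 11.5 and 2.98 reads would have fallen on Pdia3 in exercise 1 to 4. These counts follow the deposited FPKM scale, on which a read of exercise 4 is worth most, and not depth alone. Pooled over libraries, the exercise level was 0.0192 of the control level, with a 95% counting interval of 0.000482 to 0.109 from 1 read. On the log2(FPKM + 1) scale the difference was -1.91 ± 0.51 (SE; 95% confidence interval -3.04 to -0.77; limma adjusted p = 0.0227), and the exact permutation p was 0.0286, the smallest possible. Relative to the median of all genes it was -0.49. With exercise 1 and 2 averaged the difference was -1.88 (limma adjusted p = 0.0746), and when control 4 and exercise 3 were dropped as well it was -1.85 (adjusted p = 0.458). Leaving out control 3, control 4 or exercise 1, 2 or 3 raised the adjusted p to between 0.0539 and 0.0822, and quantile normalization gave a difference of -0.69 with an adjusted p of 0.231.

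**Figure D3:**
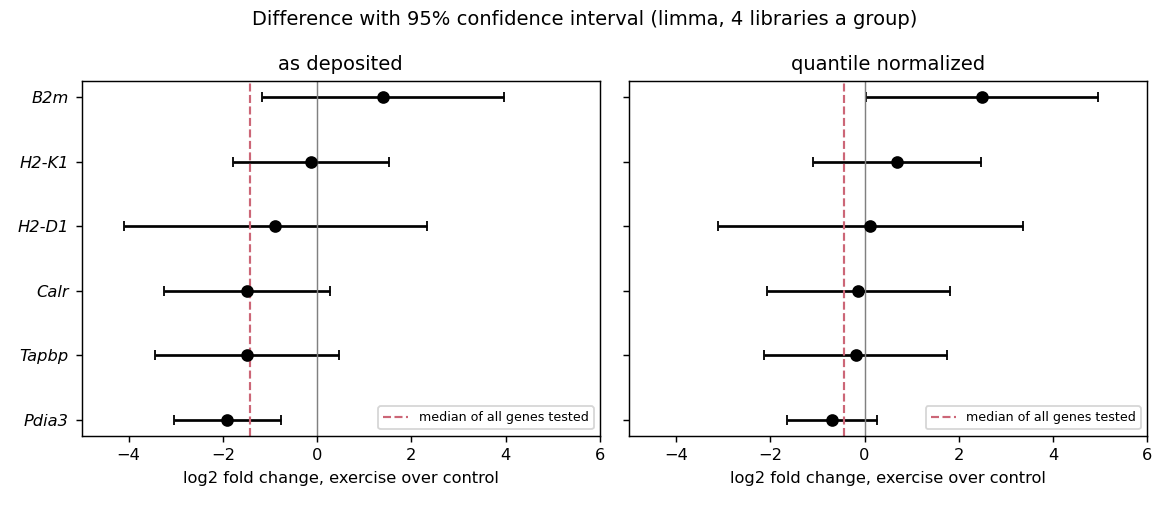
Log2 fold change of exercise over control, on the log2(FPKM + 1) scale, with its 95% confidence interval by limma (4 libraries a group): left, from the deposited values; right, after quantile normalization. The dashed line is the median of all genes tested, -1.42 on the left and -0.44 on the right; on the left Pdia3 (-1.91) has an interval that does not reach 0, and B2m (1.40) lies farthest above the median.

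Together the 9 genes took 341 to 614 CPM (reads scaled to a common library total) in control libraries and 488, 533, 242 and 37.2 CPM in exercise 1 to 4. Control 2 held reads of 8 of the 9 genes, exercise 4 of 2, H2-K1 and B2m. That library also had the largest share of mitochondrial reads, 68.7%. The part of that share in its values was not tested. In RNA of about 800 cells, fewer cells that express a gene and less RNA of it per cell cannot be told apart.

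By position, 6 of the 9 genes lie in the H2 complex on chromosome 17. Between Tapbp and H2-T23 (chr17:33915899-36032855) the table lists 205 genes, 128 of them protein coding, of which 52 had a read. Of the 23 tested there, 1 was called higher and 7 lower, 34.8% in all beside 35.6% of all genes, and their median log2 fold change was -1.69. B2m and Pdia3 lie 709 kb apart on chromosome 2, and their exercise libraries went to opposite sides of the control range in exercise 1 to 3.

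The profile most like that of B2m over the 8 libraries belonged to genes other than the 9. By the root mean square difference of log2(FPKM + 1), each gene centred on its own mean, the nearest were Mfge8 (0.386), Tmed9 (0.392), Adamts12 (0.406), Nisch (0.439) and the pseudogene Rps15-ps2 (0.476). Mfge8 had 6.13, 0, 0 and 1.55 FPKM in control 1 to 4 and 14.1, 21.4, 10.4 and 0 FPKM in exercise 1 to 4, high and low in the same libraries as B2m. Of the other 5 tested genes among the 9, H2-D1 was the nearest, at rank 457 of 4327 with a difference of 1.35, before Calr at rank 786, H2-K1 at 1603, Pdia3 at 1781 and Tapbp at 2047. These are descriptions over 8 libraries, some of them alike, and of the 5 nearest genes 0 were shared with a pseudocount of 0.1 or with scaling to read totals and 1 with read totals less mitochondrial reads.

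Among other class I and class I-like heavy chains, 23 of 26 listed were in the table, 5 had reads and 3 were tested, H2-Q4, H2-T22 and Fcgrt, which did not pass. H2-Q4, a nonclassical heavy chain named here after its values were seen, had 0, 3.52, 1.68 and 1.55 FPKM in control 1 to 4 and 41.5, 47.1, 24.7 and 0 FPKM in exercise 1 to 4. As for B2m, exercise 1 to 3 lay above every control library and exercise 4 did not. Its log2 fold change was 2.68 with an adjusted p of 0.108 by limma, and it passed without exercise 4, with quantile normalization and with array quality weights. H2-T22, also named after its values were seen, had 13.2, 0, 0.150 and 3.23 FPKM in control 1 to 4 and no read in exercise libraries. Of 12 genes of class II presentation, which is the task of professional antigen-presenting cells, 10 had no read in any library. Ifi30, the only gene of that list tested, had 0, 68.2, 38.9 and 27.6 FPKM in control 1 to 4. In exercise 1 to 4 it had 0.610, 1.28, 0.919 and 0 FPKM (log2 fold change -3.36, limma adjusted p = 0.0556).

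The proteasome genes that make class I ligands differed in direction. Of the immunoproteasome and its PA28 activator, 4 of 5 genes had reads, 2 were tested and 1 was called, higher, beside 8.78% of all genes tested. Psme1, the alpha subunit of PA28, had no read in control libraries and 5.14, 6.53, 4.08 and 0 FPKM in exercise 1 to 4, at least 9.14-fold higher in exercise against a floor of 3 reads in each control library (limma adjusted p = 0.0462). Psme2, its beta partner, had 1.48, 1710.3, 1007 and 667 FPKM in control 1 to 4 and 58.0, 87.4, 24.03 and 3.93 FPKM in exercise 1 to 4, with an adjusted p of 0.213 by limma. Partners of 1 complex thus had different patterns over the libraries. Psme1 and Psme2 were named after their values were seen. The list of constitutive genes held the subunits Psmb5, Psmb6 and Psmb7, which immunoproteasome subunits replace, and Psme3, the gamma form of PA28, which they do not. All 4 were tested and Psmb6, Psmb7 and Psme3 were lower, 2 of the 3 subunits, beside 26.8% of all genes called lower, with a median of -3.12 over the 4. Psmb6, the catalytic subunit that the immunoproteasome replaces by Psmb9, had 4.19, 2.44, 61.9 and 44.2 FPKM in control libraries and 1.28, 0, 0 and 0 FPKM in exercise libraries (log2 fold change -3.61, limma adjusted p = 0.0291). Psmb7 had 29.1, 1.15, 0.899 and 7.78 FPKM in control 1 to 4 and no read in exercise libraries (limma adjusted p = 0.0484). It was at least 7.92-fold lower against a floor of 3 reads in each exercise library, and at least 2.67-fold lower without control 1, while the limit in exercise 4, 3.04 FPKM, lay above control 2 and 3.

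In the ER, 11 of 17 genes of trimming, translocation and quality control were tested, 1 was higher and 2 lower, beside 8.78% and 26.8% of all genes tested, with a median of -0.48 against -1.42. Uggt1, which tests the folding of glycoproteins and hands them back to calreticulin and calnexin, rose from 0, 0.0254, 0.0797 and 0 FPKM in control 1 to 4 to 95.8, 91.2, 48.1 and 5.13 FPKM in exercise 1 to 4 (log2 fold change 5.30, limma adjusted p = 0.00394). Pdia6, a disulphide isomerase of the same family as Pdia3, fell from 34.8, 136, 73.3 and 57.6 FPKM to 3.19, 2.51, 3.37 and 0 FPKM (log2 fold change -4.59, limma adjusted p = 0.00337). Sec61a1, the channel of the translocon, had 79.98, 9.60, 5.37 and 21.5 FPKM in control 1 to 4 and no read in exercise libraries (limma adjusted p = 0.00681). That made it at least 46.7-fold lower, and at least 19.5-fold lower without control 1. Canx, the membrane-bound relative of Calr, did not pass, with a log2 fold change of -0.16 and an adjusted p of 0.885 by limma.

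Of 20 genes of class I transcription and interferon signalling, 9 were tested, 1 was higher and 3 lower, beside 8.78% and 26.8% of all genes, with a median of -1.29 against -1.42. Nlrc5, the class I transactivator, and Rfx5, a subunit of the factor it works through, had no read in any library. Rfxap, another subunit of that factor, was at least 8.57-fold lower (3.31 to 28.7 FPKM in control libraries, no read in exercise libraries, limma adjusted p = 0.00561). Rela and Nfkb1 encode NF-kappaB subunits and went opposite ways as FPKM. Rela was at least 7.35-fold lower with no read in exercise libraries (limma adjusted p = 0.011). Nfkb1 rose from 0.361 to 2.84 FPKM in control to 6.04 to 17.5 FPKM in exercise libraries (limma adjusted p = 0.0316). In CPM, Nfkb1 had 18.2 in exercise 4, below the 39.4, 30.2 and 29.7 of control 2 to 4. It was not called with scaling to read totals, with a constant sum or by voom, but was with read totals less mitochondrial reads. Ifngr2, a chain of the interferon gamma receptor, was at least 3.91-fold lower (limma adjusted p = 0.0063). Without control 2 these bounds were 6.32 for Rfxap, 5.08 for Rela and 3.35 for Ifngr2. The limits in exercise 4 for Rfxap and Rela, 4.64 and 3.83 FPKM, lay above control 1 (3.31 and 1.93 FPKM). Of 28 interferon-induced genes 15 had reads, 7 were tested and 1, Gbp2, was lower, beside 26.8% of all genes, with a median of -0.21. Irf1, the interferon-induced activator of class I genes, had a log2 fold change of -0.66 and an adjusted p of 0.501 by limma.

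**Figure D4:**
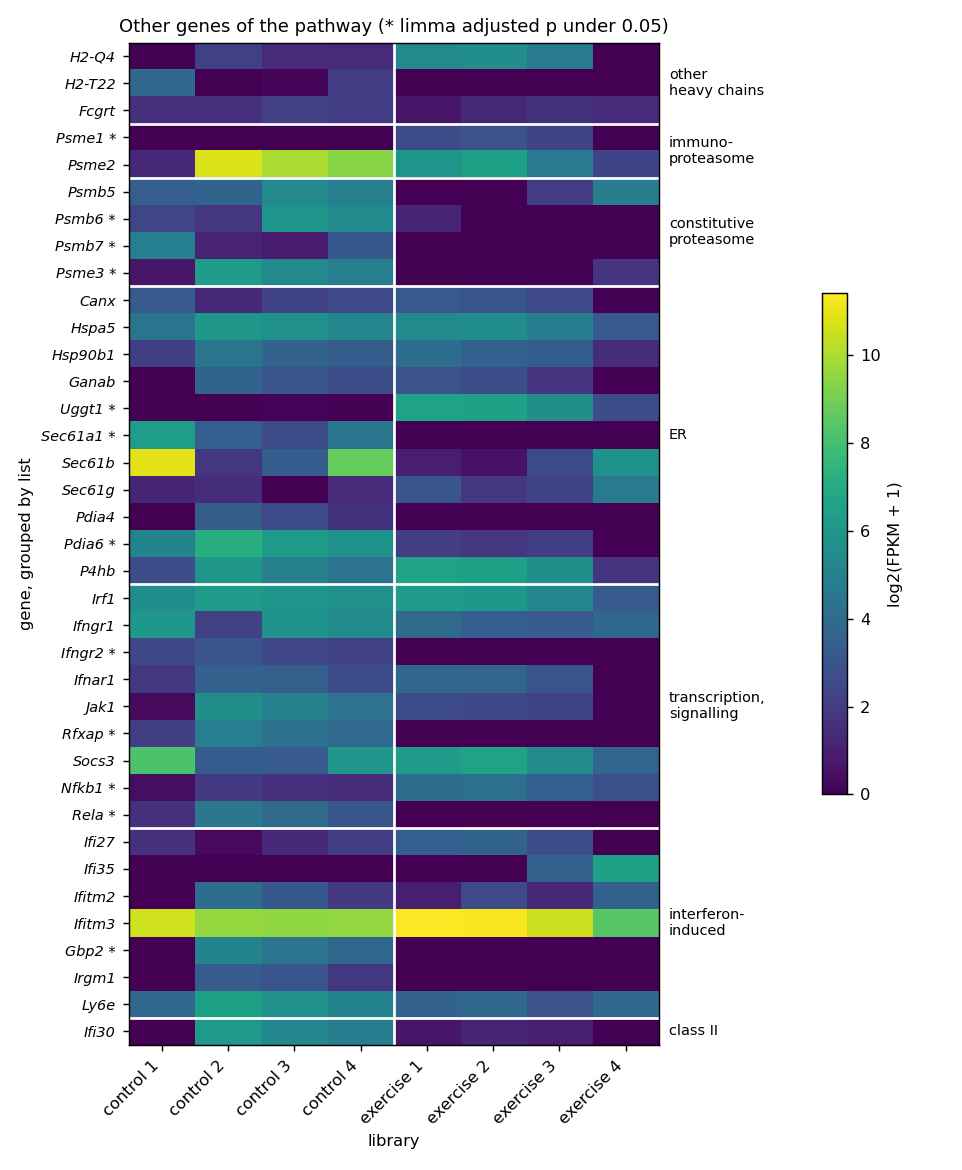
Level, as log2(FPKM + 1), of the tested genes of each pathway list (rows) in each library (columns), with control libraries left and exercise libraries right of the white line and an asterisk for a limma adjusted p under 0.05. Of 37 genes tested over the 7 lists 3 were called higher (Psme1, Uggt1 and Nfkb1) and 9 lower, 32.4% in all beside 35.6% of all genes; Rela, Rfxap, Ifngr2, Sec61a1 and Psmb7 have no read in any exercise library.

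Which of these genes passed depended on the libraries. With exercise 1 and 2 averaged, 6 of the 12 were called by limma: Uggt1, Sec61a1, Pdia6, Ifngr2, Rfxap and Rela. The same 6 were called without control 4 or without exercise 1, 2 or 3, and Psme1, Psmb6, Psmb7, Psme3, Nfkb1 and Gbp2 were not. When control 4 and exercise 3 were dropped as well, 0 were called by limma, with 4 at an unadjusted p under 0.05. Of all genes in the 7 lists, voom on the reads of the 8 libraries called 15, and quantile normalization called 5 as higher and 3 as lower in place of 3 and 9.

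Cells other than SCs can carry class I transcripts, so their markers were counted. Of 20 leukocyte markers, Ptprc (CD45) and Itgam (CD11b) included, 0 had a read in any library. Ly6a, the gene of Sca1, had 0, 8.94, 2.76 and 2.71 FPKM in control 1 to 4 and 7.44, 2.08, 5.24 and 0 FPKM in exercise 1 to 4, although cells with Sca1 had been gated out. Endothelial markers had reads for 4 of 13 genes and summed to 0.0925 to 2994 FPKM in control and 4.42 to 26.2 FPKM in exercise libraries, with 9 of the 13, Pecam1 and Cdh5 among them, at 0 in every library. Nearly the whole of the control sum was Kdr, with 0, 2994, 1669 and 1076 FPKM in control 1 to 4 and 0.530, 0.347, 0 and 0 FPKM in exercise 1 to 4 (limma adjusted p = 0.0281). Tek rose from 0.0925, 0, 0 and 0 FPKM to 23.99, 25.8, 14.7 and 4.42 FPKM (limma adjusted p = 0.00395). Fibro-adipogenic markers had reads for 10 of 10, with sums of 3058 to 4568 and 3620 to 9599 FPKM, and 4 were called by limma beside 35.6% of all genes tested, Lum and Gsn as higher and Col1a2 and Mfap5 as lower. Dcn (1243 to 1900 FPKM in control, 1065 to 1581 in exercise libraries) and Gsn (1173 to 1540 and 1484 to 7201) were the highest of them. Pdgfra had 9.44 to 35.0 and 2.42 to 7.99 FPKM. Myofibre markers had reads for 11 of 12, with sums of 39745 to 79270 and 19893 to 107783 FPKM. Smooth muscle and pericyte markers had reads for 3 of 8 and satellite cell markers for 8 of 12, with sums of 2.88 to 46.1 and 19.9 to 41.5 FPKM in control and 5.72 to 89.3 and 32.6 to 112 FPKM in exercise libraries. Myh11, of smooth muscle, had no read in control libraries and 70.1, 71.5, 35.6 and 3.14 FPKM in exercise 1 to 4 (limma adjusted p = 0.00646), and Myh1, of the myofibre list, was called lower. The sorted fractions thus held much RNA of myofibre markers and of Dcn and Gsn in both groups, and its part in the values above was not tested.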

How the data were processed

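RNA of SCs from 4 control and 4 exercise mice was sequenced on an Illumina HiSeq instrument with paired 150-base reads. Per the labels and methods, the authors aligned reads to mm10 with Bowtie 0.12.9 and deposited FPKM values made with Cufflinks 2.1.1. HTSeq is also named. FPKM times gene length gave whole multiples of the worth of 1 read in each library (tolerance 0.001, 0 exceptions), so reads were recovered. Rows sharing a symbol were summed. Groups came from sample titles. The 4328 genes averaging at least 1 FPKM were compared on log2(FPKM + 1) with limma 3.58.1 (lmFit, eBayes with trend, adjusted p under 0.05), and single genes by exact two-sided permutation. A fold on this scale understates changes of low genes. A count of 0 was bounded at 3 reads. Simulated data with known changes were used to test the fit. Coordinates are those of the table (mm10). Promoters are from RefSeq and transcripts from GENCODE, both on GRCm38. The 9 genes and all lists were chosen with earlier results of these data known. Named are the 9 genes, up to 4 called and non-overlapping genes of each list, 6 SC and leukocyte markers, the 5 nearest to B2m, and other genes of the lists, among them Psme3, Gbp2, Canx, Irf1, Nlrc5, Rfx5, Fcgrt, Kdr, Tek, Sdc4, Chodl, Heyl, Lum, Gsn, Col1a2, Mfap5, Myh11, Myh1, Psmb5, Ly6a, Pecam1, Cdh5, Cdh15 and Calcr, which were named after their values were seen. Myod1, Vcam1, Cxcr4, Tnnc2, Tnni2, Dcn, Pdgfra and Ifi30 were also named after their values were seen. Alternatives were a pseudocount of 0.1, other filters, 5 scalings, no trend, array weights, a replicate block, the highest row per symbol, voom on recovered reads, averaging exercise 1 and 2, and leaving out libraries. Replicate numbers did not pair the libraries.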

Additional observations from a re-analysis of the deposited data

Results flagged for a closer look

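In 37 groups of 4 libraries, 11 had a library whose gap to the nearest of the others exceeded 0.829 of the group's range. Chance gives about 1 in 20 for independent groups, but the number here cannot be read against it, since genes share their libraries, some were named after their values were seen, and in 5 of the 11 the other 3 libraries were at 0, where any read meets the criterion. Values here are log2(FPKM + 1). Exercise 4 was such a library for 5 genes. B2m stood at 2.33 there against 6.49 to 7.25 in exercise 1 to 3, and H2-K1 at 5.83 against 5.12 to 5.23. The light chain was thus low, while this heavy chain was high as FPKM only. In CPM, H2-K1 had 36.3 in exercise 4, the lowest of its group, against 150, 140 and 81.7 in exercise 1 to 3. H2-D1 stood at 0 against 5.07 to 5.35, H2-Q4 at 0 against 4.68 to 5.59 and Pdia6 at 0 against 1.81 to 2.13.

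In those 5 a few reads stood against 0 in the rest of the group. Tap1 stood at 0.31 in control 1 and at 0.22 in exercise 3, Tap2 at 0.12 in control 2, Pdia3 at 0.36 in exercise 3 and Psmb6 at 1.19 in exercise 1. Psme2, the beta subunit of the PA28 activator, stood at 1.31 in control 1 against 9.38 to 10.7 in control 2 to 4.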

How the results depend on the processing

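Over 23 alternative settings 243 values were recomputed, and the cause of the changes below was not tested. Fewer libraries, fewer reads in exercise libraries and the likeness of some libraries limit the precision. All genes called, 1541, became 840 with no filter, 941 with quantile normalization, 2978 with array quality weights, 603 with exercise 1 and 2 averaged, and 0 by limma when control 4 and exercise 3 were dropped as well (451 at an unadjusted p under 0.05). Leaving out 1 library gave 531 (without exercise 3) to 1890 (without control 1). Of the 9 genes, 1 was called, but 5 with array quality weights and 0 by limma with no filter, quantile normalization, the replicate block or averaged exercise libraries (1 at an unadjusted p under 0.05 in each, B2m with quantile normalization and Pdia3 in the others), and 0 with control 4 and exercise 3 also dropped (0 unadjusted). Voom on recovered reads called 1. Leaving out 1 library gave 0 to 2. Of the other pathway genes 12 were called, against 6 with no filter, 28 with array quality weights, 6 with averaged exercise libraries, 0 by limma with control 4 and exercise 3 also dropped (4 unadjusted), 15 by voom, and 6 to 17 without 1 library.

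Log2 fold changes moved as follows. With array quality weights B2m was 3.35, H2-K1 -0.79, H2-D1 1.81 and Tapbp -1.71, all called. With quantile normalization B2m was 2.50 (95% confidence interval 0.039 to 4.95, limma adjusted p = 0.122), H2-K1 0.69, H2-D1 0.12, Tapbp -0.19, Calr -0.13 and Pdia3 -0.69. With exercise 1 and 2 averaged Pdia3 was -1.88 and not called, and with control 4 and exercise 3 also dropped H2-K1 was 0.047 and Pdia3 -1.85, not called. With no filter Pdia3 was -1.91 (limma adjusted p = 0.0536). Leaving out 1 library gave 0.89 to 2.53 for B2m, -0.66 to 0.20 for H2-K1, -1.53 to 0.41 for H2-D1, -2.29 to -1.03 for Tapbp, -1.96 to -0.85 for Calr and -2.14 to -1.69 for Pdia3. H2-K1 turned sign without control 2 (0.20) or control 3 (0.08), and H2-D1 without control 1 (0.07) or exercise 4 (0.41). Over all 23 settings B2m stayed above 0 and Tapbp, Calr and Pdia3 below 0, with Pdia3 called in 13, B2m in 2, Tapbp in 2 and Calr in 0.

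With the replicate block Pdia3 was -1.91 with a limma adjusted p of 0.0677, and 1059 of all genes were called. Libraries of the same number did not deviate together, with correlations of -0.0169 to 0.0393, so the numbers are not taken as pairs. Control 2, 3 and 4 each correlated best with the exercise library of their own number and control 1 with exercise 4.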
